A study of Mus musculus with 16 samples.

Results

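The transcription factors of the glial lineage were followed by gene symbol through the count table: Sox10, Sox8, Sox9, Sox2, Foxd3, Tfap2a, Zeb2, Etv1 and Pou3f1, which are 9 of the 54838 genes measured. They were taken by name, not by their values in these samples. RNA was sequenced from spleens of C57BL/6 mice in 16 samples, 8 of them size-selected and 8 of whole spleen. For the size-selected samples, spleens were digested with enzymes, red blood cells were lysed, and the material that a strainer retained was lysed for RNA. The whole spleen samples carry the same 8 numbers (407, 408, 427, 435, 436, 445, 447 and 460), so each number has 1 sample of each kind, and both kinds share the strain. The first 4 numbers are male and the last 4 female. No genotype, treatment or age is labelled, the labels do not say how many animals stand behind a number, and the preparation of whole spleen is not described apart from that of the retained cells. Whether digestion and red cell lysis also differed between the fractions cannot be told from the labels, and the labels name no marker used to sort cells. The p-values measure the spread between these samples.

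SOX10, together with the related SOXE factors SOX8 and SOX9, is the central regulator of peripheral glia: it is switched on in the migrating neural crest, the embryonic cell population from which Schwann cells, satellite glia, enteric glia and melanocytes arise, and it stays on in glia for life. FOXD3, TFAP2A and ZEB2 act earlier in the crest, SOX2 marks immature and non-myelinating Schwann cells, and POU3F1 (also called OCT6 or SCIP) marks promyelinating Schwann cells. Several of these genes are also used outside glia, ZEB2 in macrophages and lymphocytes, SOX9 in many epithelia and in cartilage, and ETV1 in neurons and interstitial cells of the gut.

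In the size-selected samples, 12 of 12 peripheral glia markers rose, by a median of 5.87 on the log2 scale, against a median of 0.05 over all 14510 genes tested (edgeR, Benjamini-Hochberg adjusted p under 0.05). Of all genes tested, 37.5% were called higher. The 12 markers include Cdh19, a cadherin of Schwann cells, and Scn7a, a sodium channel gene of non-myelinating Schwann cells. The summed level of the 12 was 103 to 761 CPM (counts scaled to the effective library total) in the size-selected samples, where number 436 stood alone above a next highest of 306 CPM, and 8.93 to 27.1 CPM in whole spleen. Gfap, the intermediate filament of astrocytes and some Schwann cells, lost its call in 4 alternatives, among them the fit without number 436, and with males only 8 of the 12 were called. The labelled source of the size-selected samples, spleen glia, thus has its markers, and markers of other cells are high there too: fibroblast markers (7 of 7 higher) summed to 1061 to 3664 CPM, smooth muscle markers (6 of 6 higher) to 818 to 3836 CPM (the lowest, number 408, below a next lowest of 1373) and endothelial markers (6 of 6 higher) to 424 to 1083 CPM. In bulk RNA, more cells of a type and more RNA per cell cannot be told apart. Totals were 13119992 to 19944440 estimated counts for the size-selected group and 12153770 to 16282454 for whole spleen. Intervals given for counts cover counting error only.

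Foxd3, Sox2 and Sox8 were near 0 in whole spleen and have 1 start site each in the RefSeq promoter table. They are shown by the 250 bases before that start, written 5′ to 3′ on the gene's strand (GRCm38.p6), because each had few or no counts in whole spleen and counts in every size-selected sample, as few as 3 for Sox2. Capitals mark ACAAAG or ACAATG, the core SOX motif, searched on both strands.
Foxd3, chr4:99656049-99656298, plus strand: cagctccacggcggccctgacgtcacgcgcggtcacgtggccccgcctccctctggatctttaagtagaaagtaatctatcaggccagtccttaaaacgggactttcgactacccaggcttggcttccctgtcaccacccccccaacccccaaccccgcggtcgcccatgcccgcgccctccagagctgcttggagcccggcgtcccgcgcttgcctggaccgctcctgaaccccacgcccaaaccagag
Sox2, chr3:34649745-34649994, plus strand: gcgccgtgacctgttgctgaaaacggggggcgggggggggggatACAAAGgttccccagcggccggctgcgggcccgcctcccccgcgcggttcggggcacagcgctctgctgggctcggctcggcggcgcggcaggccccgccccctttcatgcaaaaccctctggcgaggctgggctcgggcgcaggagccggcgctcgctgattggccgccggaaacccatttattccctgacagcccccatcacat
Sox8, chr17:25570687-25570936, minus strand: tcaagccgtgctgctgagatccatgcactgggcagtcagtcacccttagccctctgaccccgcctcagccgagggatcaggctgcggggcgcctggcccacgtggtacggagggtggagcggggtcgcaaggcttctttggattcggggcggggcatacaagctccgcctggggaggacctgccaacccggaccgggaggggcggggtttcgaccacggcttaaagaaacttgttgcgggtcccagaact
The stretches before Foxd3 and Sox8 have 65.6% G or C each, with 21 and 18 CpG pairs, and hold no match. The stretch before Sox2 has 72.0% G or C, 27 CpG pairs and 1 match, beginning 206 bases before the RefSeq start, which lies upstream of the gene's start in GENCODE. Over the 32851 promoters of the table the median is 52.4% G or C and 6 CpG pairs, and 25.2% hold a match, so the motif is common at this length. Of the 9 members, 6 have an entry in that table.

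Of the 9 members, 8 rose in the size-selected samples and 1, Tfap2a, did not pass the test. Each of the 8 was higher in 8 of 8 numbers, and for each of them the lowest size-selected sample lay above the highest whole spleen sample (exact two-sided permutation p = 0.000155 for each, the smallest that 8 against 8 can give, which restates the separation; exact sign flips within the 8 numbers gave p = 0.00781 for each, the smallest that 8 pairs can give). Groups separated in this way for 13.6% of all genes above 0 and for 23.4% of those past the filter on low counts. That filter was passed by 5 members (Sox8, Sox9, Zeb2, Etv1 and Pou3f1) and all 5 were called higher, where 37.5% of the 14510 genes tested were. The other 4 are given from a fit without the filter, in which Sox10, Sox2 and Foxd3 were called higher beside 25.3% of 28235 genes. A gene passes the filter more easily if it is high in 1 group, so these shares are a description. The plot of the members' levels by sample shows the gap between the fractions.

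**Figure D1:**
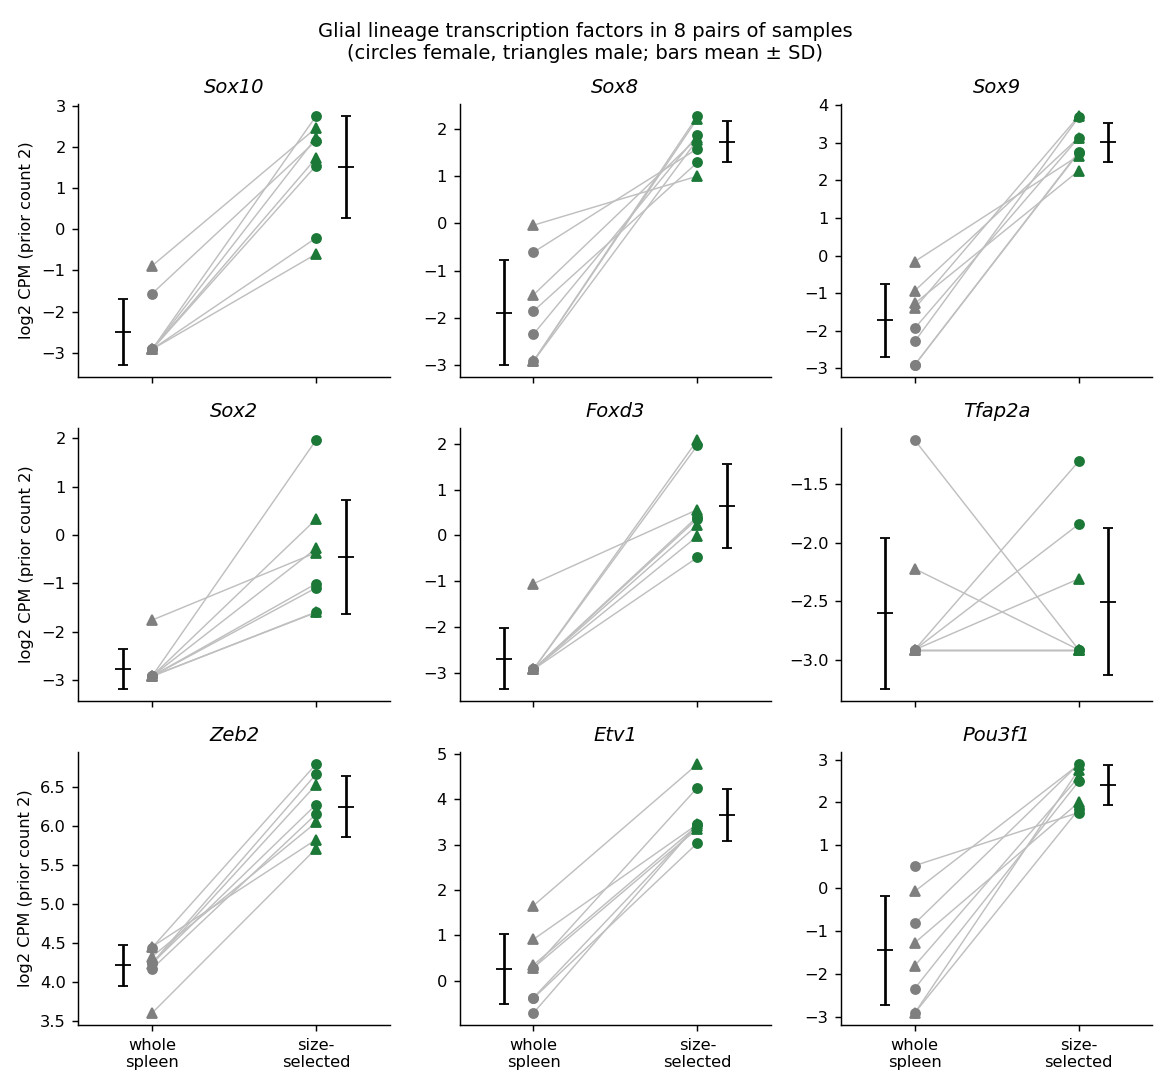
Level of each member in every sample (log2 CPM, prior count 2), whole spleen in grey beside size-selected in green, with lines joining samples of 1 number, circles for females, triangles for males and bars for the mean ± SD of each fraction (n = 8). The fractions do not overlap for 8 members, and Tfap2a lies at or near the floor of the scale in both; each panel has its own axis.

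The 3 SOXE genes rose together. Sox10 (chr15:79154908-79165240, minus strand, GRCm38) had 8, 46, 75, 81, 121, 59, 11 and 58 estimated counts in the size-selected samples, in the order of numbers given above, or 0.526 to 6.58 CPM with a median of 3.75. In whole spleen it had 5 counts in number 427, 3 in number 445 and 0 in the other 6. The level was thus high in 6 size-selected samples, low in numbers 407 and 447, and at or next to nothing in every whole spleen. Mean levels were 3.50 ± 2.13 CPM (SD, n = 8) and 0.077 ± 0.152 CPM (SD, n = 8), and the log2 difference was 5.39 (SE 0.74, adjusted p = 2.35e-06). The 459 size-selected counts against 8 in whole spleen give a ratio of 49.6 per scaled total, with a 95% counting interval of 25.0 to 116. Without number 427, the whole spleen with the most counts, the log2 difference was 6.42.

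Sox9 (chr11:112782224-112787760, plus strand), which acts beside SOX10 in the crest before glia form, had 83.0 to 234 counts in the retained cells and 0 to 10 in whole spleen. Its level had a minimum of 4.65, a median of 7.65 and a maximum of 13.0 CPM in the former, and 0, 0.187 and 0.763 CPM in the latter. Every size-selected sample was thus well above every whole spleen. The log2 difference was 5.16 (SE 0.48, adjusted p = 2.95e-08). Sox9 and Etv1 are the members whose deposited size-selected counts carry a multiplying constant, between 0.770 and 0.858 by sample, and dividing it out gave 5.40 for Sox9. Without number 408, which has the most whole spleen counts, it was 5.74.

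Sox8 (chr17:25565892-25570686, minus strand), the SOXE gene that backs up Sox10, had 31.6 to 86.1 counts in the retained cells and 0 to 12 in whole spleen. Its lowest, median and highest levels were 1.86, 3.32 and 4.69 CPM against 0, 0.104 and 0.841 CPM. The difference was 3.79 on the log2 scale (SE 0.56, adjusted p = 8.2e-06), and 4.54 without number 435, whose whole spleen had 12 of the 25.8 counts in that group. An antisense gene, 2810468N07Rik, shares 329 exonic bases with Sox8 and itself had 15.5 to 58.9 counts in the retained cells and 0 to 13 in whole spleen. Whether the counting used strand is not given in the sources used here, so reads of the pair cannot be told apart in the shared bases.

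The balance of the 3 differed between samples. Per kilobase of exon, Sox9 made up 47.8 ± 7.90% of the SOXE level in the size-selected samples (SD, n = 8), from 35.0 to 57.8%. Sox10 made up 26.2 ± 14.0%, from 4.64 to 46.3%, and Sox8 25.9 ± 7.60%, from 18.03 to 38.8%. Only Sox9 of the 3 carries a multiplying constant, and with it divided out the shares were 52.9 ± 7.76% for Sox9, 23.8 ± 12.9% for Sox10 and 23.4 ± 6.82% for Sox8 (SD, n = 8). Sox10 varied most of the 3 as deposited, with a coefficient of variation of 60.9% in CPM against 36.4% for Sox9 and 29.6% for Sox8. Fibroblast, endothelial and mesothelial markers moved between the fractions in the same direction as Sox9 and Sox8, and their part in these values was not tested.

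Of the early crest factors, Foxd3 and Zeb2 rose and Tfap2a stayed near 0 in both fractions. Foxd3 (chr4:99656299-99658622, plus strand), a forkhead repressor that marks crest cells and glial precursors, had 13, 15, 57, 24, 69, 8, 18 and 24 counts in the size-selected samples. In whole spleen it had 5 counts in number 435 and 0 in the other 7. Levels ran from 0.585 to 4.08 CPM, with a median of 1.18, against a mean of 0.044 ± 0.124 CPM (SD, n = 8). Numbers 427 and 436 were highest, and no size-selected sample was without counts. The log2 difference was 5.01 (SE 0.77, adjusted p = 1.16e-05), and the ratio of summed counts was 39.4 (95% counting interval 16.6 to 123). Number 435 is the 1 whole spleen with Foxd3 counts. With it left out, the other 7 are at 0 and Foxd3 was at least 59.5-fold higher, against a floor of 3 counts over the group. That bound holds for the 7 numbers kept, not for all 8.

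Zeb2 (chr2:44983632-45117395, minus strand), a zinc finger repressor needed for crest formation and for Schwann cell myelination, was the most abundant member in both fractions. It had 817 to 2301 counts in the retained cells and 171 to 336 in whole spleen. Levels were 52.2, 74.0 and 110.6 CPM at the lowest, median and highest size-selected sample, and 12.01, 18.8 and 21.7 CPM in whole spleen. The gap between the groups was thus more than the range of whole spleen. Its log2 difference, 2.07 (SE 0.16, adjusted p = 3.01e-09), was the smallest of the 8. Macrophage markers, which include Adgre1 and Csf1r, summed to 2848 to 6405 CPM in the size-selected samples and 1259 to 2471 CPM in whole spleen, with 4 of 7 called higher. Natural killer cell markers fell in 5 of 5 cases. Both cell types are known to express Zeb2, and their part in its difference was not tested. The antisense gene Zeb2os shares 653 exonic bases with Zeb2 and had 12 to 58.01 counts in the size-selected samples.

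Tfap2a (chr13:40715302-40738376, minus strand), an AP-2 factor of early crest and of Schwann cell precursors, had 8 counts in all size-selected samples together and 6 in all whole spleens. It was above 0 in numbers 408, 436 and 445 of the former, with 1, 5 and 2 counts, and in numbers 427 and 447 of the latter, with 1 and 5. The groups overlap, and the log2 difference was 0.16 (SE 1.06, adjusted p = 0.917; -0.93 without number 436 and 2.00 without number 447, neither called). The ratio of 1.15 has a 95% counting interval of 0.351 to 4.03, so no difference was detectable at this depth and one of that size in either direction is within the interval.

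Sox2 (chr3:34650405-34652461, plus strand) rose from almost none. It had 3, 10, 9, 20, 69, 5, 3 and 7 counts in the size-selected samples, and in whole spleen 2 counts in number 427 and 0 in the other 7. Number 436 alone held 69 of the 126 size-selected counts, and the other 7 had 20 or fewer. The median level was 0.505 CPM, from 0.197 to 3.75, against a mean of 0.020 ± 0.058 CPM (SD, n = 8) in whole spleen. The log2 difference was 5.10 (SE 0.91, adjusted p = 7.02e-05), and it was 4.09 without number 436, still called. Number 427 is the 1 whole spleen with Sox2 counts. With it left out, the other 7 are at 0 and Sox2 was at least 33.7-fold higher, and at least 14.1-fold without number 436 as well. These bounds hold for the numbers kept. Over all 8 numbers the ratio of summed counts was 54.5 (95% counting interval 14.8 to 455). Sox2ot, the long transcript on the same strand within which Sox2 lies, shares no exonic base with it and had 0 to 8 counts in the retained cells and 0 in each whole spleen.

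Pou3f1 and Etv1 rose as well. Pou3f1 (chr4:124656807-124660655, plus strand), the POU factor of the promyelinating stage, had 47 to 134 counts in the retained cells and 0 to 20 in whole spleen. Its lowest, median and highest levels were 3.26, 5.68 and 7.29 CPM against 0, 0.216 and 1.31 CPM, which do not overlap. The log2 difference was 3.79 (SE 0.55, adjusted p = 6.85e-06), and 4.51 without number 447, the highest whole spleen. Etv1 (chr12:38779380-38870484, plus strand), an ETS factor downstream of neuregulin signals, had 121 to 379 counts against 7 to 37. Its levels were 8.05, 10.7 and 27.1 CPM in the size-selected samples and 0.481, 1.08 and 3.02 CPM in whole spleen. Numbers 427 and 436 stood above the other 6 size-selected samples, and number 427 was also the highest whole spleen in Etv1. The log2 difference was 3.44 (SE 0.36, adjusted p = 1.14e-07), and 3.68 with the multiplying constants divided out.

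**Figure D2:**
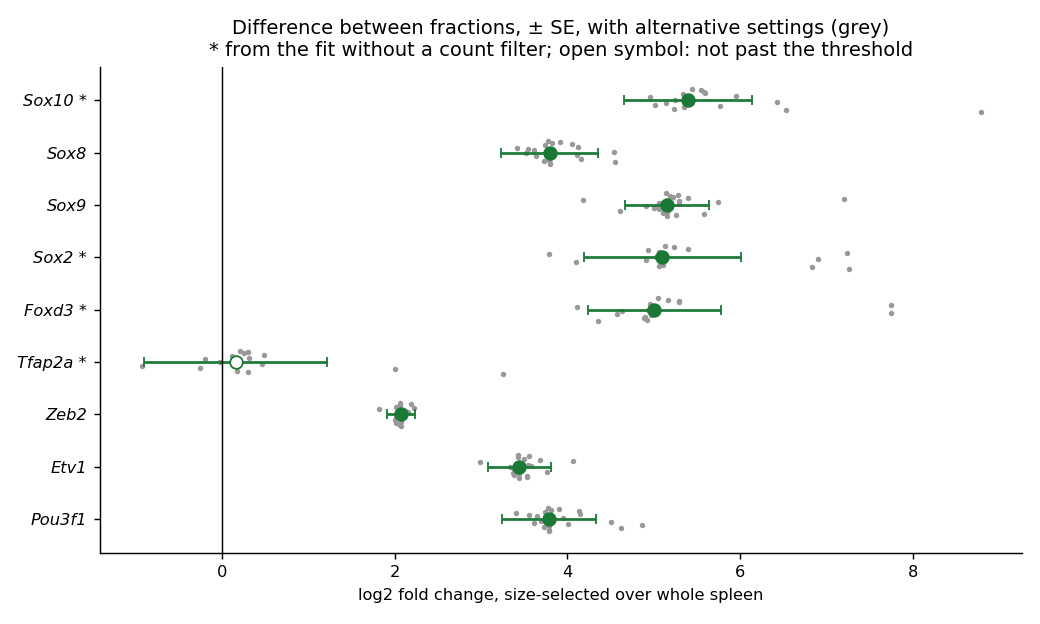
Log2 fold change of each member, size-selected over whole spleen, with bars of 1 SE (large points; open where not past the threshold, starred where taken from the fit without a count filter); small grey points are the alternative fits. Zeb2 has the smallest change among the 8 that were called (2.07), and the bar of Tfap2a crosses 0.

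Compared per length of exon, which allows levels of different genes to be set side by side, Zeb2 was highest in the size-selected samples at 3.93 ± 1.06 CPM per kilobase (SD, n = 8). Sox9 followed at 2.03 ± 0.739, above Pou3f1 at 1.40 ± 0.434, Sox10 at 1.15 ± 0.699, Sox8 at 1.06 ± 0.313 and Etv1 at 1.00 ± 0.483. Foxd3 stood at 0.754 ± 0.585, Sox2 at 0.444 ± 0.578 and Tfap2a at 0.012 ± 0.020 CPM per kilobase. Of the 8 steps between neighbours in this order, that from Zeb2 to Sox9 alone was larger than the larger of the 2 SDs in the counts as deposited. With the constants of Sox9 and Etv1 divided out, Sox9 stood at 2.34 ± 0.813 and Etv1 at 1.16 ± 0.536 CPM per kilobase, the step from Sox9 to Pou3f1 (1.32 ± 0.411) was also larger than the larger SD, and Etv1 came before Sox10 (1.08 ± 0.659) and Sox8 (0.999 ± 0.298) without differing from them beyond the spread. Sox10 lay above Sox8 in 4 of 8 samples, and Pou3f1 above Sox10 in 5 of 8. In whole spleen Zeb2 stood at 0.935 ± 0.152 CPM per kilobase, and the other 8 members had means of 0.099 or less. The lengths take in every annotated exon, so genes with many transcripts, such as Zeb2 and Etv1, are scaled by more sequence than 1 transcript holds.

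**Figure D3:**
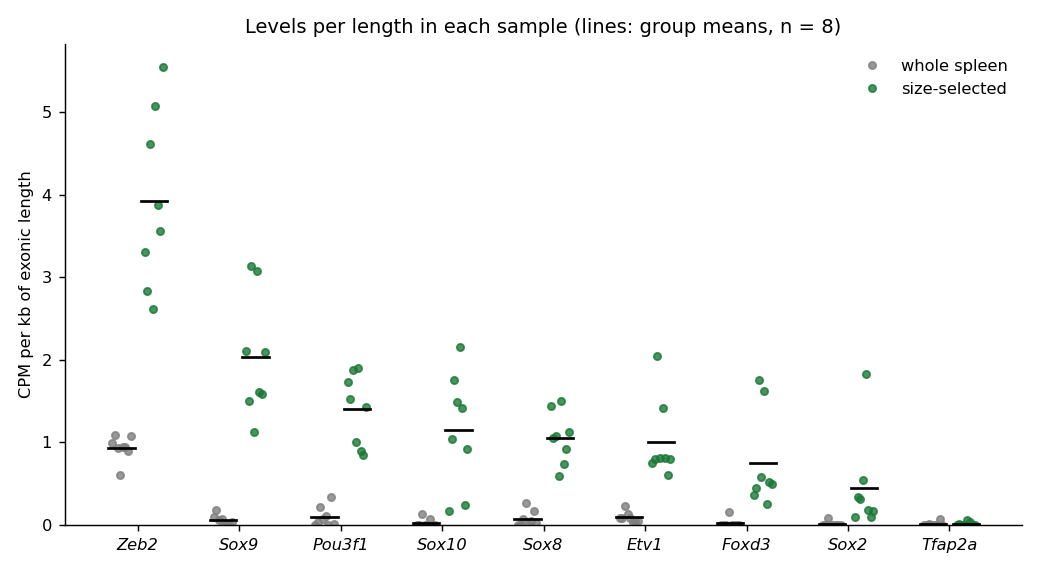
Level of each member per kilobase of exon (CPM per kilobase, linear axis) in the 8 size-selected (green) and 8 whole spleen (grey) samples, with lines at the group means, ordered by the size-selected mean. Zeb2 leads at a mean of 3.93 and Tfap2a ends the order at 0.012.

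Among the size-selected samples, Sox10 had positive coefficients with all 12 glia markers, of unequal size, and no Pearson correlation passed. In all, 20 relations were computed on log2 CPM over the 8 samples, with exact permutation tests adjusted over the 20. With Cdh19, Pearson's r was 0.81 (exact permutation p = 0.0105, adjusted p = 0.105; r = 0.86 without numbers 407 and 447, the samples farthest from the median) and Spearman's rho was 0.98. With S100b, r was 0.71 (exact permutation p = 0.0516, adjusted p = 0.129; r = 0.87 without those samples) and rho was 0.86. With Sox2, r was 0.74 (exact permutation p = 0.0353, adjusted p = 0.118; r = 0.74 without those samples) and rho was 0.88. Adjusted exact permutation p was under 0.05 for 7 of the 20 relations by Spearman's rho and for 0 by Pearson's r. With Etv1, r was 0.64 (exact permutation p = 0.0478, adjusted p = 0.129; r = 0.72 without numbers 407 and 447) and rho was 0.93. With Foxd3, r was 0.49 (0.69 without those samples) and rho was 0.64, and with Tfap2a, which has few counts, r was 0.52 (0.48). The coefficient was 0.21 with Sox9 (0.49 without those samples), -0.22 with Sox8 (0.19), 0.20 with Pou3f1 (0.28) and 0.28 with Zeb2 (0.15), so the sign for Sox8 rests on those samples. By Pearson's r, the 8 relations with members had adjusted exact permutation p of 0.118 to 0.626. By Spearman's rho, 2 of the 8 passed, Sox2 (adjusted exact permutation p = 0.0241) and Etv1 (0.0149), and the other 6 had adjusted p of 0.148 to 1.0. Over the 12 glia markers r ran from 0.34 (Gfap) to 0.83 with a median of 0.68, and rho from 0.24 (Gfap) to 0.98. Without numbers 407 and 447, r over the 12 ran from 0.09 (Gfap) to 0.87. Whether the coefficients differ from each other was not tested. The 5 genes of 13354 whose levels were most like that of Sox10 over these samples were Dcp1b (r = 0.98), Ostm1 (0.94), Dnajb12 (0.93), Adam11 (0.92) and Ptpn2 (0.91), given as a description with no test.

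Pigment genes, which depend on SOX10 in melanocytes, varied widely between samples. Dct, an enzyme of melanin synthesis, had 807, 1221 and 313 counts in the size-selected samples of numbers 427, 445 and 447 and at most 7 in the other 5. The summed level of 5 pigment genes (Tyr, Tyrp1, Dct, Pmel and Mlana) was 35.1 to 175 CPM in those 3 samples and 0.224 to 1.51 CPM in the other 5. Whole spleens of the same 3 numbers had 0.849 to 9.14 CPM and the other 5 had 0.233 to 0.534 CPM, and the 2 whole spleens with Sox10 counts are among the former. Melanocytes are known to express Sox10. Sox10 was called without the 3 numbers as well. They hold both whole spleens with Sox10 counts, so the 5 remaining whole spleens had 0. Among those 5 numbers Sox10 was at least 84.2-fold higher in the size-selected samples, which is no bound for all 8 numbers. Over all 8 numbers the ratio of summed counts was 49.6 (95% counting interval 25.0 to 116). What pigment cells contribute to the Sox10 difference was not tested. All 8 differences were called without those numbers.

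**Figure D4:**
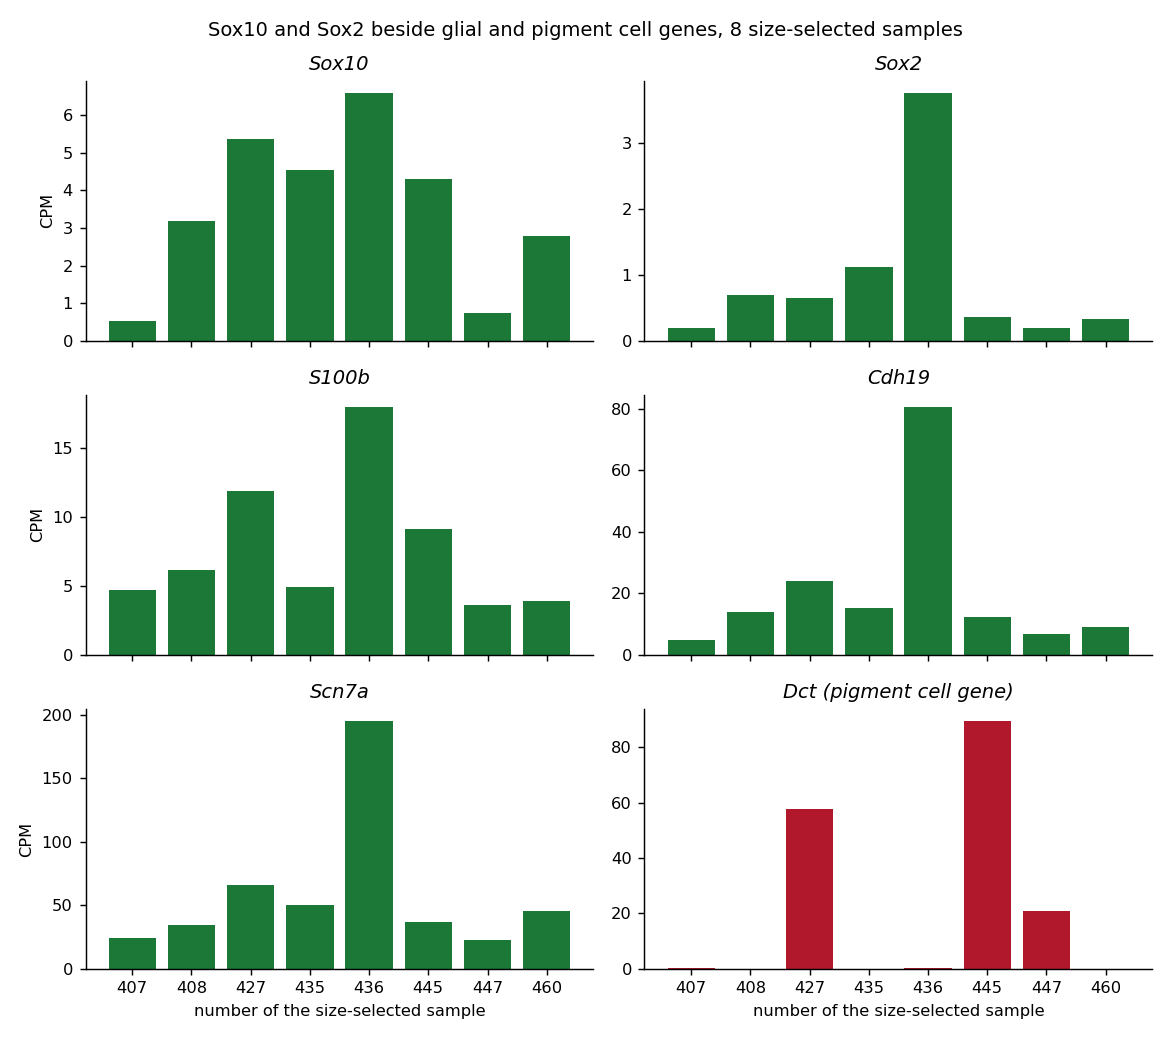
Levels (CPM, 1 bar a sample, each panel with its own axis from 0) of Sox10, Sox2, the glia markers S100b, Cdh19 and Scn7a and the pigment gene Dct in the 8 size-selected samples, by number. Number 436 is highest for all but Dct, which is high in numbers 427, 445 and 447.

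No member differed between the sexes past the threshold. The interaction of sex and fraction was called for 0 of 15760 genes (0.0%) by edgeR, with 744 at an unadjusted p under 0.05, and for 3 genes by DESeq2, none of them a member. Within the size-selected samples, 6 of 15127 genes (0.0397%) differed between females and males, none a member, and Zeb2 had a female over male log2 difference of 0.42 (SE 0.20, adjusted p = 0.999). Sox9 had the smallest unadjusted interaction p of the members. Its size-selected levels were 8.13 ± 3.64 CPM in males and 8.64 ± 2.89 CPM in females (SD, n = 4 each), whereas its whole spleen counts were 3 to 10 in males and 0 to 2 in females. The log2 fold change was 2.95 greater in females than in males in the edgeR interaction fit (SE 0.85, adjusted p = 1.00), with fitted values of 7.21 in females only and 4.18 in males only. The unadjusted edgeR p for Sox9 in that fit was 0.00309, and the difference rests on whole spleen counts of 10 or fewer. In simulated data, drawn with the same spread for every gene and without pairs, this test found 11.5% of genes whose fold changes differed by 2 on the log2 scale. At that spread most differences of that size would be missed. The interaction SE was 0.29 for Zeb2 and 1.75 for Sox10, so this share does not carry over to each member.

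Of a list of 28 other regulators of the crest and of Schwann cells, 21 passed the filter, of which 14 were higher, 2 lower and 5 not called, beside 37.5% higher among all genes tested. Their median log2 difference was 1.88. The largest were Msx1 (6.31, SE 0.28), a homeobox factor of the crest border, Nfatc4 (6.18, SE 0.54), a calcineurin-regulated factor, Hey2 (6.01, SE 0.62), a Notch effector that is also vascular, and Snai2 (5.82, SE 0.45), a repressor of epithelial genes in migrating crest. Jun, which drives the repair state of Schwann cells, rose by 3.05 (SE 0.18). Egr2 (Krox20), the main driver of myelination, rose by 0.47 (SE 0.15, adjusted p = 0.00942). As a fold change this was far less than that of Pou3f1, which acts just before Egr2 in myelinating cells. Whole spleen already held Egr2 at a mean of 71.5 CPM, against 99.2 CPM after size selection. Pou3f1 went from a mean of 0.381 to 5.39 CPM. Their fold changes thus start from unequal levels, and which cells hold the Egr2 transcripts was not tested. Yy1 and Egr3 fell by 1.52 (SE 0.16) and by 1.09 (SE 0.18). Zeb1, the paralog of Zeb2, had a log2 difference of -0.27 (adjusted p = 0.101), and Sox6, Nab1, Nab2 and Id2 also did not pass. Pou3f2, the close relative of Pou3f1, was at 0 in all 16 samples. Fibroblasts, smooth muscle or endothelium also express Snai2 and Hey2, and their markers rose in 7 of 7, 6 of 6 and 6 of 6 cases; their part was not tested.

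**Figure D5:**
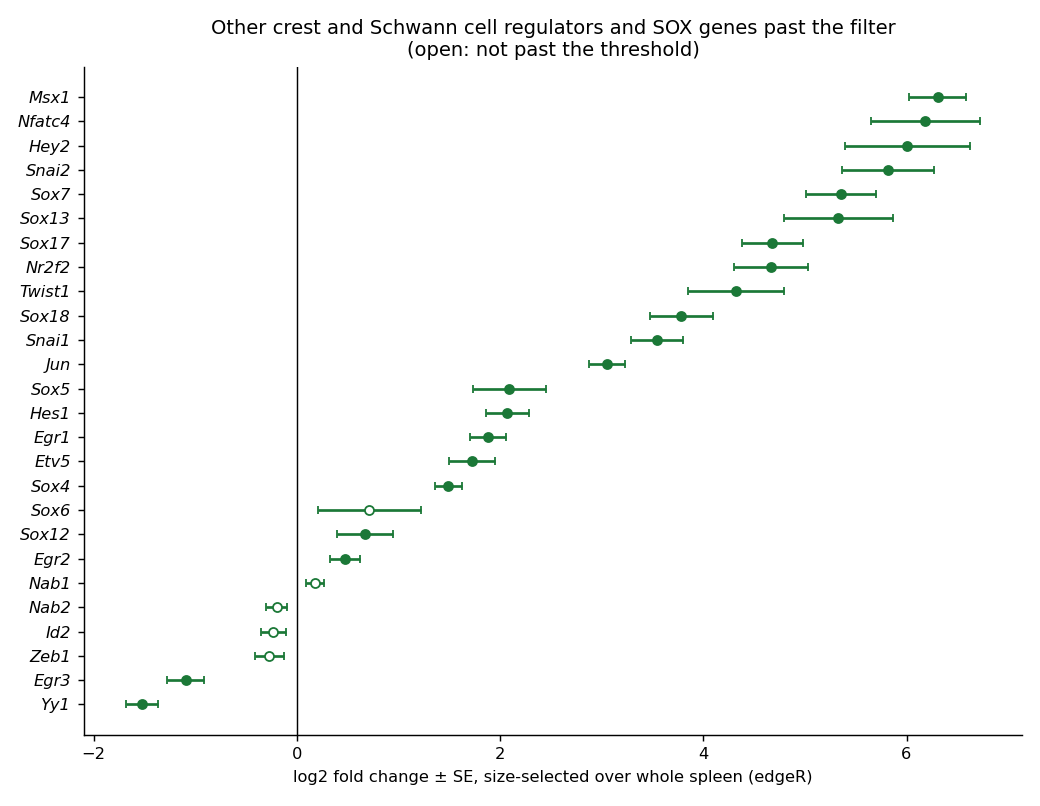
Log2 fold change, size-selected over whole spleen, of the other lineage regulators and SOX genes that passed the filter, with bars of 1 SE; open points did not pass the threshold. Msx1 leads at 6.31, Sox7 and Sox13 lead the SOX genes, and Yy1 is lowest at -1.52.

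Outside the members the SOX family has 16 genes, of which 8 passed the filter. Of these, 7 rose, beside 37.5% higher among all genes tested, and 1, Sox6, was not called (median 2.94). The largest were Sox7 (5.35, SE 0.35), Sox13 (5.33, SE 0.54), Sox17 (4.68, SE 0.30) and Sox18 (3.78, SE 0.31). Sox7, Sox17 and Sox18 form the SOXF group of endothelial cells, and endothelial markers, 68.3 to 132 CPM in whole spleen (132 in number 427 and at most 84.6 in the others), rose in 6 of 6 cases. Sox12 (0.67, SE 0.28, adjusted p = 0.0408) lost its call under RLE scaling, with constants divided out and without any 1 of 6 numbers. It was not called by edgeR without a count filter either (adjusted p = 0.102). With males only, and without numbers 427, 445 and 447, the family had 6 genes called higher. Sry, Sox1 and Sox14 were at 0 in every sample.

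Of 13 genes known to depend on SOX10, 10 passed the filter. Of these, 9 rose, beside 37.5% higher among all genes tested, and 1 was not called (median 3.36). Whether SOX10 acts on them in these samples was not tested. Gjc3, a gap junction protein of myelinating glia, was at 0 in all whole spleens and at least 121-fold higher against a floor of 3 counts over the group. Number 436 held 213 of its size-selected counts and the others 18 to 46 each, and without that number the bound was 60.6-fold. S100b (6.45, SE 0.67), a calcium-binding glia marker, and Ednrb (4.96, SE 0.32), the endothelin receptor of crest cells and of endothelium, also rose. Mbp, a myelin protein gene with a transcript used in blood cells, had a log2 difference of 0.39 (SE 0.32, adjusted p = 0.291). S100b and Erbb3 are also in the glia list.

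The remaining marker lists moved as follows, where 5446 of all 14510 genes tested were called higher and 4409 lower. Mesothelial markers rose in 6 of 6 cases (52.1 to 126 CPM in the size-selected samples but for 21.7 in number 408 and 200 in number 445, and 0.381 to 3.10 CPM in whole spleen) and megakaryocyte markers in 5 of 5. B cell markers fell in 5 of 5, T cell and neutrophil markers in 4 of 5 each, and erythroid markers in 2 of 5. Of 10 sympathetic neuron markers, Th was at 0 in all 16 samples and Dbh, Phox2a and Slc6a2 at 0 in all whole spleens; 5 passed the filter, of which 3 rose and 1 fell. Of 6 melanocyte markers only Mitf passed the filter, and it rose by 1.29 (SE 0.31). In the edgeR fit without a filter the other 5 were called higher too, by 3.58 (Pmel) to 5.06 (Dct) on the log2 scale, with adjusted p of 0.00363 to 0.0236 and the high counts in the 3 numbers given above. What these cells contribute to the members' differences was not tested.

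The authors' deposited table holds 2201 genes, none with a log2 fold change under 3.5, and 6 members are in it. In the authors' deposited table the log2 fold changes are 5.30 for Sox10, 5.22 for Sox9, 3.62 for Sox8, 5.42 for Sox2, 5.31 for Foxd3 and 3.82 for Pou3f1. The authors' deposited table gives mean TPM values (scaled to transcript length and library total) for size-selected samples and whole spleen of 1.68 and 0.0325 for Sox10, 3.09 and 0.0538 for Sox9, and 2.16 and 0.152 for Sox8. Zeb2, Etv1 and Tfap2a are not in it, and the log2 difference of Zeb2 given above lies under that limit. That of Etv1 is 3.44, under it, or 3.68, over it, with the constants divided out.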

How the data were processed

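RNA was sequenced in 16 spleen samples, and the authors deposited estimated counts per gene, with Trim Galore, STAR, RSEM, DESeq and the build mm10 named in the submitters' processing notes. No label or header mentions it, but 3898 genes have size-selected values, among the counts the authors deposited, that are a number of 2 decimals or fewer multiplied by 1 to 3 constants, found from the values; dividing them out was an alternative. The authors' own comparison table holds log2 fold changes, adjusted p-values and mean TPM per group, per the file headers.

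Counts were rounded and tested with edgeR 4.0.16 in R 4.3.3 (filterByExpr with a minimum count of 10, TMM, quasi-likelihood F test, Benjamini-Hochberg over all genes tested, calls at an adjusted p under 0.05), with the group as the only term. Members under the filter come from the same fit on all genes above 0. A standard error is the log2 fold change over the square root of F. CPM use TMM-scaled totals, log2 CPM a prior count of 2, and levels per kilobase the union of exons in GENCODE M21 (GRCm38), where 54723 of 54838 identifiers were found and 54174 had the same symbol. Positions in the text are from it, and promoters are from RefSeq on GRCm38.p6. All per-sample columns were used. Alternatives were RLE scaling, library totals, other filters, DESeq2 1.42.0, limma-voom 3.58.1, a replicate block, sex as a covariate, 1 sex alone, a fold limit, restored counts and leaving out each number. Leaving out numbers 427, 445 and 447 together was chosen after seeing the data. So were the numbers left out for the lower bounds of Foxd3, Sox2 and Gjc3, sign flips within pairs and levels per kilobase with the constants divided out.

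Samples of the same number deviated together from their group means (mean r 0.21 over 14486 genes, lowest 0.12, against -0.03 for different numbers), so the number, taken from the labels, pairs them. A simulation shifted 200 genes by a log2 change of 2, with the same spread for every gene and without pairs. In it the fraction fit recovered 99.0% of them among 14786 genes, with 10 unchanged genes in 208 calls. The sex fit recovered 77.5% among 15096 genes and the interaction fit 11.5% among 15543. Genes with a wider or narrower spread would be recovered at other rates.

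The members and all gene lists were chosen with earlier results of these data known. Named were all members, up to 4 called genes with the largest change from each list, and the 5 genes most like Sox10; other genes were chosen after their values were seen. Some list genes are not reported here.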

Additional observations from a re-analysis of the deposited data

Results flagged for a closer look

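For 4 members a whole spleen stood far from the other 7. The measure was run on 18 groups (9 members, 2 fractions) and would mark about 1 in 20 for continuous values; that rate does not hold for Sox2 and Foxd3, where any sample above 0 among zeros is marked. Sox2 in number 427 was at -1.76 on the log2 CPM scale, from 2 counts, with the others at 0 counts (-2.91). Foxd3 in number 435 was at -1.05, from 5 counts, with the others again at 0 counts. Tfap2a in number 447 was at -1.12, also from 5 counts, and the next highest was at -2.22. Zeb2 in number 435 was the lowest whole spleen at 3.60, below a range of 4.17 to 4.45 in the others. The first 3 rest on 5 counts or fewer, and no size-selected sample stood apart in this way for any member.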

How the results depend on the processing

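All 8 calls of members held in every alternative run, and Tfap2a was called in none (log2 -0.93 to 3.26). Over the alternatives, the log2 difference ran from 4.96 to 8.78 for Sox10, 4.12 to 7.75 for Foxd3, 3.78 to 7.26 for Sox2, 4.18 to 7.21 for Sox9, 3.41 to 4.55 for Sox8, 3.40 to 4.87 for Pou3f1, 2.99 to 4.07 for Etv1 and 1.82 to 2.22 for Zeb2. The wide ranges belong to genes with few whole spleen counts: Sox10 without the 3 pigment numbers, Sox2 without them, Foxd3 with females only and Sox9 with females only gave the highest values, and where all whole spleens left were at 0 (Sox10, Sox2 and Foxd3) the fitted value depends on the prior count and is no bound. Genes called numbered 9855, 9249 to 9823 leaving out 1 number, 10076 with the replicate block, which changed no call of a member, and 4844 with a log2 change of at least 1. Without a filter they numbered 12293, 11162 to 11920 leaving out 1 number, and 6966 in males only. The interaction gave 0 calls, but 3 with DESeq2 (Amotl2, Kcnh3 and Magi1) and 3 with the replicate block (Bgn, Hspa1b and Stab1), and sex in the size-selected samples gave 6, but 22 with DESeq2. For these counts the cause was not tested. Library totals moved the share of calls that were higher from 55.3 to 63.7% (58.2 to 69.5% without a filter) and the median of all genes by 0.13 (0.17) on the log2 scale. Depth limits Tfap2a, and the whole spleen levels of Sox10, Sox2 and Foxd3.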
